A study of Homo sapiens with 8 samples.

Results

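The 10 aldehyde dehydrogenase genes described here are ALDH1A1, ALDH1A2, ALDH1A3, ALDH1B1, ALDH2, ALDH3A1, ALDH3A2, ALDH7A1, ALDH9A1 and ALDH18A1, picked by gene symbol from the 18787 symbols of the deposited table. T98 and U87 are established cell lines from human glioblastoma, and their RNA was sequenced 72 h after siRNA transfection. The 4 groups, of 2 libraries each, were T98 with an siRNA against LKB1, T98 with a control siRNA, U87 with the LKB1 siRNA and U87 with the control siRNA. LKB1 is the kinase encoded by STK11, and it activates AMPK and related kinases. All groups were transfected with Lipofectamine RNAiMAX, and how many siRNAs were used is not stated in the labels. Nor is it said whether the duplicates came from separate cultures, so the p-values reflect the spread between the libraries alone, which may be technical.

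The genes were chosen with their values in view: LKB1 siRNA against control siRNA in each line and lane, and T98 against U87 with control siRNA. The difference between T98 and U87 under LKB1 siRNA is the control siRNA line difference plus the T98 knockdown difference minus the U87 one, so those values fix it as well. All 4 comparisons are therefore given as descriptions for the 10 genes, with no p-value. Counts of these genes past a threshold stand beside the share of all genes past it and support nothing, while genes outside the 10 were tested. Each group had 1 library on sequencing lane 2 and the other on lane 4 (T98) or lane 5 (U87). In every list of values below, the lane 2 library comes first within a group.

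Libraries held 25234334 to 38031734 reads, as recovered from the normalised values. STK11 had values of 339.9 and 587.6 in T98 LKB1 siRNA libraries, against 1999 and 2041 in T98 control libraries. In U87 the STK11 values were 360.7 and 384.6 with LKB1 siRNA, against 2445 and 2041 with control siRNA. All 6 mesenchymal markers examined were at 10 or more in every library, among them VIM and CD44. Of 8 glial and neural stem markers, 3 were at that level in every T98 library and 4 in every U87 library. SOX2, S100B and AQP4 were between 0 and 3.48 in all 8 libraries, and GFAP, the astrocyte filament, was at 1.85 to 8.60 in T98 and 21.6 to 50.7 in U87. SLC1A3 was at 260.1 to 1541 and OLIG2 at 25.5 to 70.4 in all libraries, and NES at 16.2 to 123.1 in T98 and 1361 to 2073 in U87. Of 5 epithelial markers, 2 were at 10 or more in every T98 library and 3 in every U87 library. Of 4 endothelial markers, 1 and 3 were. KRT18 was at 2190 to 3844 in T98, and KDR at 149.9 to 268.8 in U87. Of 5 leukocyte markers, 2 were at 10 or more in every T98 library and 1 in every U87 library. PTPRC, AIF1 and CD3E stayed below 10, whereas CD68 was at 538 to 22934. CD14 was at 12.81 to 26.09 in T98 and 9.385 to 12.66 in U87. In bulk RNA, fewer cells of a type and less RNA per cell cannot be told apart.

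Most aldehyde dehydrogenases use NAD+ or NADP+ to oxidise aldehydes to acids, whereas ALDH18A1 makes the precursor of proline from glutamate. ALDH1A1, ALDH1A2 and ALDH1A3 turn retinal into retinoic acid, the ligand of the nuclear retinoic acid receptors. Several other family members clear acetaldehyde, lipid aldehydes or intermediates of amino acid breakdown. High aldehyde dehydrogenase activity is widely used to sort stem-like tumour cells, and in glioblastoma ALDH1A3 is known as a marker of the mesenchymal type of such cells.

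ALDH1A1 and ALDH1A3 encode close relatives with the same retinal substrate, and they had opposite patterns between the lines, so their promoters are printed. The stretches are the 250 bases before the RefSeq start on GRCh38.p14, on the strand of the gene: chr9:72953054-72953303 (minus strand) for ALDH1A1 and chr15:100879581-100879830 (plus strand) for ALDH1A3. Capitals mark matches, on either strand, to the TATA box letters TATAAA, the CCAAT box letters CCAAT and the GC box letters GGGCGG.
ALDH1A1: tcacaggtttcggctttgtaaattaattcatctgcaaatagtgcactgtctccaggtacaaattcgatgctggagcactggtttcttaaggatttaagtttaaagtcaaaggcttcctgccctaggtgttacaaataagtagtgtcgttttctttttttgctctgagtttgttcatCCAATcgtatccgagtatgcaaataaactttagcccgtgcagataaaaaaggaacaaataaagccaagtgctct
ALDH1A3: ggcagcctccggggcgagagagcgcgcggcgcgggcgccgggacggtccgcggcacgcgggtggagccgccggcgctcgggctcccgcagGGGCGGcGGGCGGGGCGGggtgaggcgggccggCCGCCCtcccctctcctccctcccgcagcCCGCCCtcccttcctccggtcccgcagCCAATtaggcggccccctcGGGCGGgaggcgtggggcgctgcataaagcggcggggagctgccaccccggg
The ALDH1A1 stretch is 38.4% G and C, and 10.1% of 35116 RefSeq promoter windows are lower. The ALDH1A3 stretch is 82.4% G and C, and 98.6% of windows are lower. ALDH1A3 holds 6 GC box matches, of which 1 pair shares a base, and ALDH1A1 holds 0. A GC box match occurs in 42.6% of all promoter windows, a CCAAT match, present once in each gene, in 32%, and a TATAAA match, present in neither, in 10.7%. These matches describe letters and not bound sites.

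ALDH1A3 was the family's most abundant transcript in U87, and there it was higher with LKB1 siRNA. The transcript (NM_000693, chromosome 15, 101420008 to 101456830, plus strand, hg19) had values of 33361 and 66928 in U87 LKB1 siRNA libraries, against 8933 and 28144 in U87 control libraries. The groups did not overlap, and the lane 5 library was the higher of the 2 in both. Within lanes the difference was 1.90 on lane 2 and 1.25 on lane 5 on the log2(value + 1) scale, and 1.58 over both (SE 0.52, n = 2 per group), or 2.98-fold. In T98 the ALDH1A3 values were 1724 and 1646 with LKB1 siRNA, against 1254 and 1308 with control siRNA. Those groups did not overlap either, and the log2 differences were 0.46 on lane 2 and 0.33 on lane 4. ALDH1A3 was therefore higher with LKB1 siRNA in all 4 lane pairs, with the larger differences in U87.

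ALDH1A1, a cytosolic retinal dehydrogenase, was a T98 transcript that was lower with LKB1 siRNA. The transcript (NM_000689, chromosome 9, 75515577 to 75568233, minus strand, hg19) had values of 432.3 and 961.9 in T98 LKB1 siRNA libraries, against 1046 and 2493 in T98 control libraries. The groups did not overlap, although the lane 4 LKB1 siRNA library came close to the lane 2 control library. Its log2 difference was -1.27 on lane 2 and -1.37 on lane 4, and -1.32 over both (SE 0.62, n = 2 per group). In U87 it was near the floor: 13 and 11 reads with LKB1 siRNA, against 9 and 5 reads with control siRNA. The normalised values there, 16.9 and 9.17 with LKB1 siRNA and 9.46 and 4.74 with control siRNA, overlapped between the groups. Their log2 differences of 0.78 and 0.83 rest on at most 13 reads per library.

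ALDH1A2, the retinal dehydrogenase best known from embryonic development, was hardly detected. It did not reach the value of 10 in at least 2 libraries required of a gene and has no fold change here. The transcript (NM_001206897, chromosome 15, 58245621 to 58358121, hg19) had 0 and 0 reads in T98 LKB1 siRNA libraries, against 0 and 1 reads in T98 control libraries. In U87 it had 0 and 11 reads with LKB1 siRNA (the 0 recovered from a value of 0.27), against 0 and 3 reads with control siRNA. A count of 0 allows up to 3 reads by counting error alone. Reads of the 2 U87 groups were found only on lane 5.

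**Figure D1:**
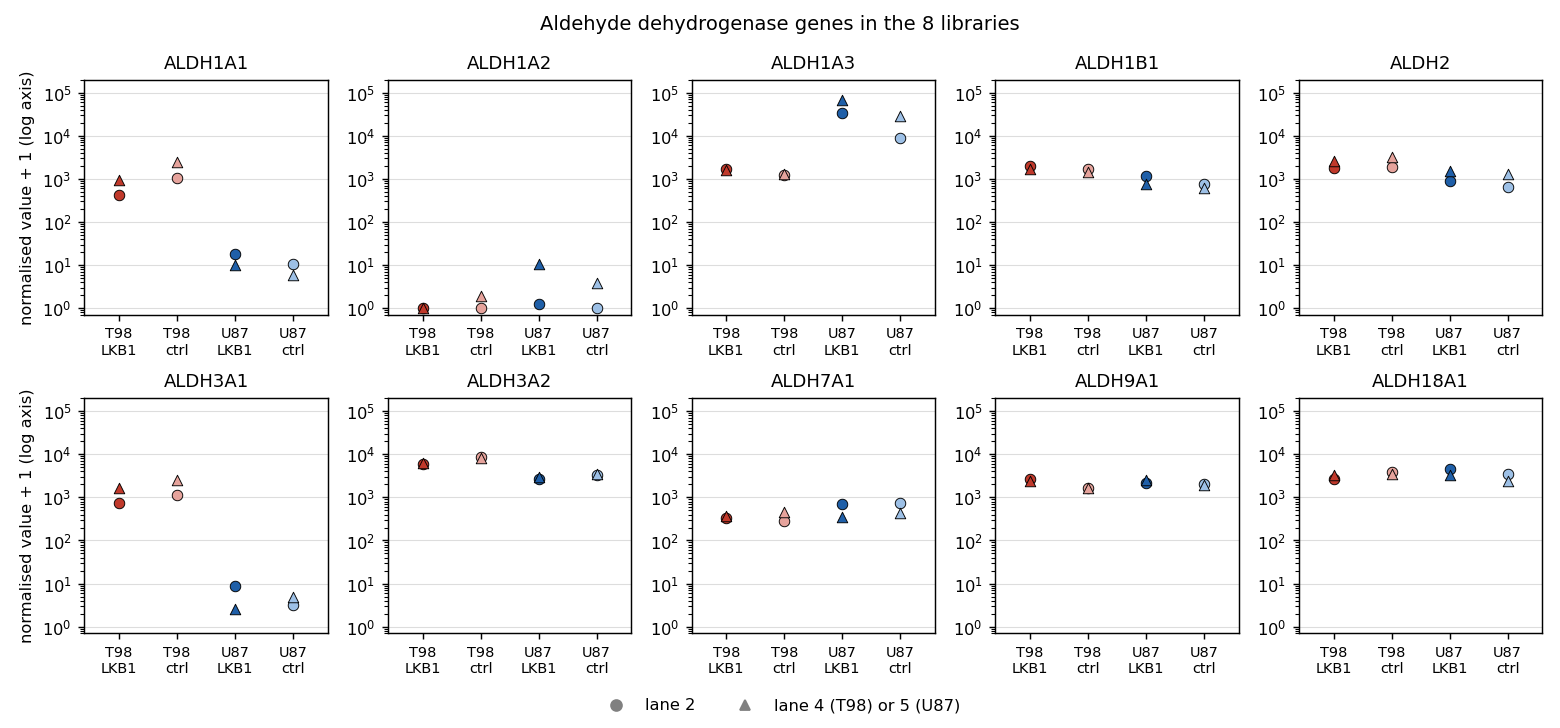
Normalised value plus 1 (log axis) of the 10 aldehyde dehydrogenase genes, 1 panel per gene; each point is a library, circles are lane 2, triangles are lane 4 (T98) or lane 5 (U87), and LKB1 and ctrl name the siRNA. ALDH1A1 and ALDH3A1 are below 20 in all U87 libraries and above 400 in all T98 libraries, while ALDH1A3 is at 8933 or more in all U87 libraries and at 1724 or less in all T98 libraries.

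The mitochondrial enzymes ALDH2 and ALDH1B1 were expressed in both lines and differed less between the siRNAs. ALDH2, which clears acetaldehyde formed from ethanol (chromosome 12, 112204690 to 112247789), had values of 1770 and 2626 in T98 LKB1 siRNA libraries, against 1925 and 3206 in T98 control libraries. In U87 ALDH2 had 870.2 and 1535 with LKB1 siRNA, against 662.1 and 1300 with control siRNA. The siRNA groups overlapped in both lines, and the log2 differences had opposite signs: -0.12 and -0.29 in the T98 lanes, 0.39 and 0.24 in the U87 lanes. In all 4 groups the lane 2 library was the lower, by 0.57 to 0.97 on the log2 scale. ALDH1B1, a close homologue of ALDH2 (chromosome 9, 38392660 to 38398662), had values of 2024 and 1658 in T98 LKB1 siRNA libraries, against 1682 and 1447 in T98 control libraries. In U87 ALDH1B1 had 1154 and 776.7 with LKB1 siRNA, against 761.2 and 623.3 with control siRNA. The U87 groups did not overlap, the T98 groups did, and all 4 lane pairs were higher with LKB1 siRNA, by 0.20 to 0.60 on the log2 scale.

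The neighbours ALDH3A1 and ALDH3A2 on chromosome 17 had unlike patterns. ALDH3A1, which oxidises aromatic and medium-chain aldehydes and is abundant in cornea (19641297 to 19651746), had values of 720.7 and 1650 in T98 LKB1 siRNA libraries, against 1140 and 2541 in T98 control libraries. The T98 groups overlapped, since the lane 4 libraries were higher by 1.19 and 1.16 on the log2 scale, but within each lane the LKB1 siRNA library was lower, by -0.66 and -0.62. In U87 ALDH3A1 had 6 and 2 reads with LKB1 siRNA, against 2 and 4 reads with control siRNA, too few for a direction. ALDH3A2, the fatty aldehyde dehydrogenase whose loss causes Sjögren-Larsson syndrome (19552063 to 19580908), had values of 5838 and 6339 in T98 LKB1 siRNA libraries, against 8652 and 8099 in T98 control libraries. In U87 ALDH3A2 had 2675 and 2998 with LKB1 siRNA, against 3355 and 3462 with control siRNA. ALDH3A2 was lower in all 4 lane pairs, the groups did not overlap in either line, and its lanes differed by at most 0.16 on the log2 scale. The log2 difference over both lanes was -0.46 in T98 and -0.27 in U87 (SE 0.16 each).

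Of the enzymes tied to amino acid and carnitine metabolism, ALDH9A1 was higher with LKB1 siRNA, while ALDH18A1 and ALDH7A1 showed no common direction. ALDH9A1, which oxidises the trimethylaminobutyraldehyde of carnitine synthesis (chromosome 1, 165631448 to 165667900), had values of 2652 and 2368 in T98 LKB1 siRNA libraries, against 1629 and 1692 in T98 control libraries. In U87 ALDH9A1 had 2142 and 2597 with LKB1 siRNA, against 2071 and 1927 with control siRNA. Neither line's groups overlapped, but in U87 the difference was 0.05 on lane 2 and 0.43 on lane 5, against 0.70 and 0.49 in the T98 lanes. ALDH18A1, which makes the precursor of proline from glutamate (chromosome 10, 97365685 to 97416567), had values of 2676 and 3287 in T98 LKB1 siRNA libraries, against 3788 and 3464 in T98 control libraries. In U87 ALDH18A1 had 4621 and 3387 with LKB1 siRNA, against 3523 and 2411 with control siRNA. Its log2 differences were -0.50 and -0.08 in the T98 lanes, where groups did not overlap, and 0.39 and 0.49 in the U87 lanes, where they did. ALDH7A1, antiquitin, of lysine breakdown (chromosome 5, 125877532 to 125931082), had values of 322.6 and 372.4 in T98 LKB1 siRNA libraries, against 285.8 and 463.4 in T98 control libraries. In U87 ALDH7A1 had 695.1 and 348.7 with LKB1 siRNA, against 731.5 and 422.8 with control siRNA. Both pairs of groups overlapped, and in U87 the lanes differed by more than the siRNAs.

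**Figure D2:**
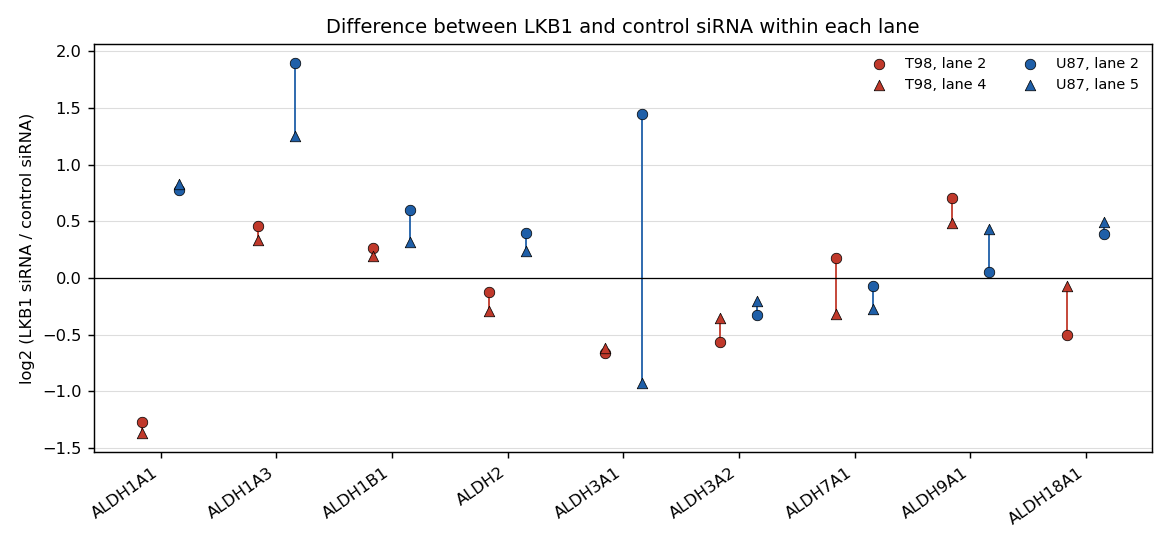
Log2 of LKB1 siRNA over control siRNA, on value plus 1, for the 9 aldehyde dehydrogenase genes past the filter on low values; red is T98 and blue U87, circles are lane 2, triangles lane 4 (T98) or lane 5 (U87), and a line joins the lanes of 1 cell line. ALDH1A1 lies at -1.27 and -1.37 in T98, ALDH1A3 at 1.90 and 1.25 in U87, and ALDH3A1 in U87, with 2 to 6 reads per library, spans both signs.

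For 9 of the 10 members the value reached 10 in at least 2 libraries, ALDH1A1 and ALDH3A1 through T98 alone. In T98, 0 of the 9 were past the threshold of limma-trend without a lane term, as 0.028% of 14282 genes were. With a lane term for each line, 1 was past it and higher and 2 were past it and lower, as 8.48% and 7.33% of all genes were. LKB1 and control siRNA libraries did not overlap for 2 higher and 3 lower members, and for 20.5% of all genes in each direction. In U87, 0 of the 9 were past the threshold without a lane term (0.056% of all genes), and with it 1 was higher and 0 lower (5.29% and 5.91% of all genes). The U87 groups did not overlap for 3 higher members and 1 lower, and for 17.6% of all genes higher and 20.2% lower. At an unadjusted p under 0.05 there were 2 members in T98 and 1 in U87, where 1502 and 1268 of the 14282 genes were. EdgeR and DESeq2 called 0 members in both lines. Of all genes, edgeR called 3 in T98 and 0 in U87, and DESeq2 called 350 and 491. The median log2 difference of the 9 members was -0.20 in T98 and 0.32 in U87, where the medians of all genes were 0.02 and -0.00.

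The lines differed far more than the siRNAs for ALDH1A1, ALDH1A3 and ALDH3A1. Under LKB1 siRNA, T98 had a value of ALDH1A1 47.9-fold that of U87 on the log2(value + 1) scale (log2 5.58, SE 0.62, n = 2 per group). ALDH3A1 was at 720.7 and 1650 in T98, against 7.56 and 1.55 in U87, where 6 and 2 reads put it near the floor (log2 7.87, SE 0.73). ALDH1A3 went the other way and was 28.0-fold lower in T98 (log2 -4.81, SE 0.52). The large differences thus ran both ways: T98 had more of the ALDH1A1 and ALDH3A1 transcripts, and U87 had more of ALDH1A3. T98 expressed ALDH1A3 too, at 1724 and 1646 with LKB1 siRNA. ALDH3A2 was 2.15-fold higher in T98 (log2 1.10, SE 0.16) and ALDH1B1 1.93-fold higher (log2 0.95, SE 0.26). Lane 4 held only T98 and lane 5 only U87, so the lines can be set against each other within a lane only on lane 2. There the log2 differences were 6.40 for ALDH3A1, 4.60 for ALDH1A1, -4.27 for ALDH1A3, 1.13 for ALDH3A2 and 0.81 for ALDH1B1.

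The other 4 members differed less between the lines under LKB1 siRNA. The log2 difference of T98 against U87 was 0.90 for ALDH2 (SE 0.44), -0.51 for ALDH7A1 (SE 0.43), -0.42 for ALDH18A1 (SE 0.25) and 0.09 for ALDH9A1 (SE 0.18). For ALDH7A1 it was -1.11 on lane 2 and 0.09 between lane 4 of T98 and lane 5 of U87, and the groups of the lines overlapped. Of the 9 members, 4 were past the limma-trend threshold and higher in T98, as 21.5% of all genes were, and 1 was lower, as 20.9% were. With a lane term, which sets the lines against each other on lane 2, 8 of the 9 were past it, where 65.3% of all genes were.

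With control siRNA, 5 members were past the threshold and higher in T98 and 1 was lower, as 18.3% and 19.5% of all genes were. The log2 differences of T98 against U87 were 8.77 for ALDH3A1, 7.71 for ALDH1A1, 1.42 for ALDH2, 1.30 for ALDH3A2, 1.18 for ALDH1B1 and -3.63 for ALDH1A3. They were 0.31 for ALDH18A1, -0.27 for ALDH9A1 and -0.61 for ALDH7A1. Beside the LKB1 siRNA libraries, the gap between the lines was narrower for ALDH1A1 (5.58 against 7.71) and wider for ALDH1A3 (-4.81 against -3.63), a contrast of the same knockdown differences given above.

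**Figure D3:**
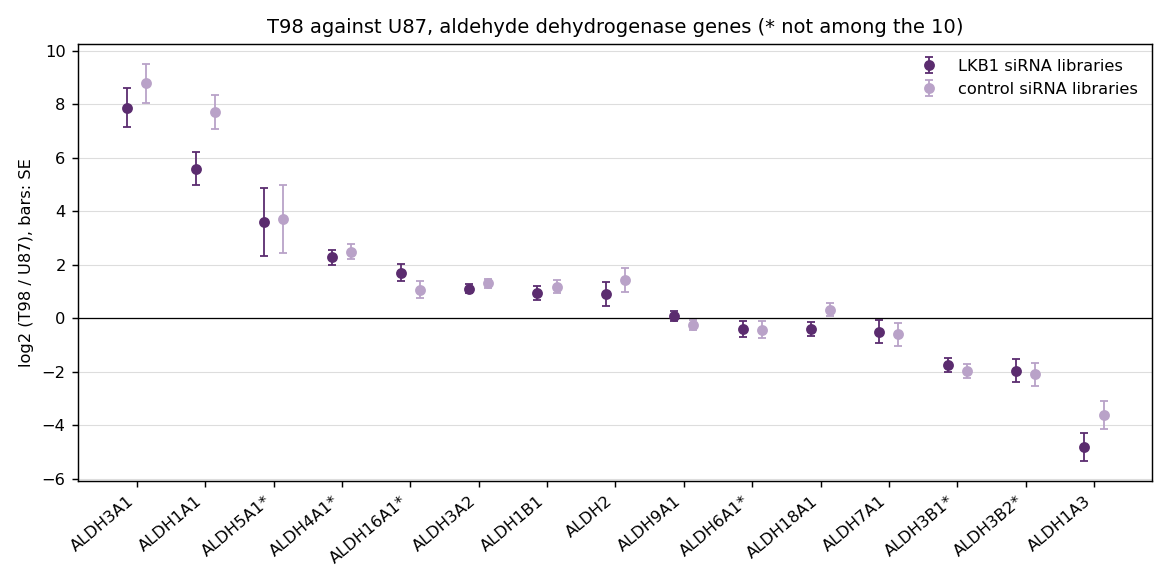
Log2 of T98 over U87, on value plus 1, for all 15 aldehyde dehydrogenase genes past the filter on low values, in LKB1 siRNA libraries (dark) and control siRNA libraries (light); bars are standard errors of the fit and an asterisk marks genes that are not among the 10 members. ALDH3A1 and ALDH1A1 lie far above 0 and ALDH1A3 far below, ALDH5A1 has the widest bars, and the others lie between -2.10 and 2.48.

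Levels of different genes were compared per kilobase of transcript. In U87 LKB1 siRNA libraries ALDH1A3 made up 71.3% and 83.2% of the 10 members' summed value per kilobase, against 42.6% and 71.0% in U87 control libraries. Among all 18787 genes it ranked 184 and 70 per kilobase with LKB1 siRNA, against 975 and 189 with control siRNA. In T98 the ALDH1A3 share was 8.31% and 6.68% with LKB1 siRNA, against 5.24% and 4.42% with control siRNA. T98 was led instead by ALDH3A2, with 1521 and 1652 per kilobase with LKB1 siRNA, against 2254 and 2110 with control siRNA. ALDH2 was next in T98, with 853.9 and 1267 per kilobase with LKB1 siRNA, against 928.7 and 1547 with control siRNA. The libraries of ALDH3A2 and ALDH2 did not overlap in either T98 group, but those of ALDH2 and the next gene, ALDH9A1 with LKB1 siRNA and ALDH18A1 with control siRNA, did. After ALDH1A3, the U87 order of group means was ALDH18A1, ALDH9A1 and ALDH3A2 with LKB1 siRNA, against ALDH3A2, ALDH18A1 and ALDH9A1 with control siRNA. ALDH1A3 stood clear of the next gene in both U87 groups, and ALDH18A1 and ALDH9A1 overlapped in both. ALDH2 overlapped with ALDH3A2 in U87 LKB1 siRNA libraries. ALDH1B1 and ALDH7A1 followed without overlap in both U87 groups, and ALDH1A1, ALDH3A1 and ALDH1A2 came last in U87.

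The summed value per kilobase of the members was 18136 ± 6791 in U87 LKB1 siRNA libraries and 8641 ± 3767 in U87 control libraries (SD, n = 2 each). Without ALDH1A3 the sums were 3842 ± 25.0 and 3357 ± 105, so ALDH1A3 carried most of that difference. In T98 the sum was 6468 ± 783 with LKB1 siRNA and 7628 ± 1136 with control siRNA (SD, n = 2 each), and without ALDH1A3 it was 5988 ± 798 and 7263 ± 1125. The sums of the T98 groups overlapped, with 5915 and 7022 per kilobase for LKB1 siRNA against 6825 and 8431 for control siRNA. Those of U87 did not, with 13334 and 22938 against 5977 and 11305.

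**Figure D4:**
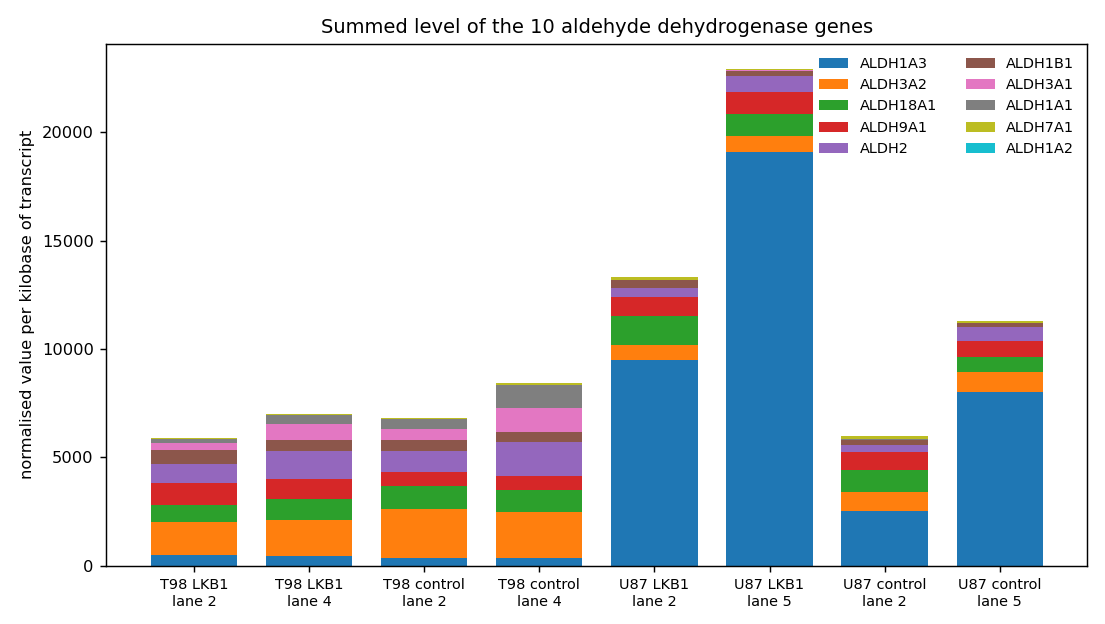
Normalised value per kilobase of transcript of the 10 aldehyde dehydrogenase genes, stacked in 1 bar per library, with line, siRNA and lane under each bar. ALDH1A3 fills 42.6% to 83.2% of the U87 bars and 4.42% to 8.31% of the T98 bars.

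For several members the 2 libraries of a group differed as much as the siRNA groups did. Between the libraries of 1 group, ALDH1A1 was higher on lane 4 of T98 by 1.15 with LKB1 siRNA and 1.25 with control siRNA on the log2 scale, and ALDH1A3 was higher on lane 5 of U87 by 1.00 and 1.66. Over all genes tested, the median absolute difference between lanes was 0.33 to 0.40. ALDH3A2 and ALDH9A1 were steadier, with lane differences between -0.16 and 0.28. The part of the lane in the knockdown values was not tested, but each is given within lanes above.

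The TruSeq V2 kit does not mark strand, so reads from a gene and an overlapping antisense gene cannot be told apart. In GENCODE v29, ALDH1A3 is overlapped on the opposite strand by the antisense genes AC015712.7 and AC015712.2. ALDH3A1 is overlapped by AC005722.3, and ALDH3A2 by AC115989.1 and RF00019. ALDH1A1 is overlapped by the pseudogene CYP1D1P, and ALDH9A1 by the pseudogenes AL451074.1, AL451074.3 and AL451074.4. ALDH1A2 is overlapped by the protein-coding genes AQP9 and LIPC, the antisense gene AC025431.1 and others. Outside the 10, ALDH5A1 is overlapped by GPLD1, ALDH6A1 by BBOF1, ALDH16A1 by PIH1D1 and ALDH3B1 by AC004923.4. The values of these members are uncertain to that extent.

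Of 9 other human aldehyde dehydrogenase genes, 8 were in the table and 6 were tested: ALDH3B1, ALDH3B2, ALDH4A1, ALDH5A1, ALDH6A1 and ALDH16A1. None of the 6 was called in either knockdown comparison by limma-trend with or without a lane term, where log2 differences lay between -0.51 and 0.31. Nor did any reach an unadjusted p of 0.05 without a lane term, and edgeR and DESeq2 called 0. The lines differed more. ALDH4A1, of proline breakdown, was higher in T98, at 629.0 and 463.5 with LKB1 siRNA against 103.6 and 118.7 in U87 (log2 2.27, adjusted p = 0.000783 by limma-trend). With control siRNA it was at 715.3 and 687.3 in T98 against 118.3 and 131.8 in U87 (log2 2.48, adjusted p = 0.000602 by limma-trend). ALDH3B1, which acts on lipid aldehydes, was lower in T98, at 795.5 and 764.3 with LKB1 siRNA against 2165 and 3194 in U87 (log2 -1.75, adjusted p = 0.00167 by limma-trend), and likewise with control siRNA (log2 -1.97, adjusted p = 0.00114).

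ALDH3B2 was also lower in T98 with LKB1 siRNA (log2 -1.96, adjusted p = 0.00932 by limma-trend) and with control siRNA (log2 -2.10, adjusted p = 0.00821). Its calls were lost without the lane 2 library of T98 LKB1 siRNA (0.0527), without the lane 5 library of U87 LKB1 siRNA (0.0667) and, with control siRNA, without the lane 5 library of U87 (0.0534). ALDH16A1 was higher in T98 with LKB1 siRNA (log2 1.71, adjusted p = 0.00434 by limma-trend) and with control siRNA (log2 1.07, adjusted p = 0.0306). The control siRNA call of ALDH16A1 was lost without either T98 control library (0.105 each) or the lane 5 U87 control library (0.155). ALDH5A1, of GABA breakdown, had 1 and 46 reads in U87 LKB1 siRNA libraries and 4 and 42 reads in U87 control libraries, low on lane 2 in both. With a lane term, its T98 against U87 log2 difference with LKB1 siRNA was 5.34 (adjusted p = 1.42e-05 by limma-trend). That fit sets the lines against each other on lane 2, where U87 had the fewest ALDH5A1 reads. The ALDH5A1 difference was 5.525 on lane 2 and 1.66 between lane 4 of T98 and lane 5 of U87. Without a lane term the difference was 3.59 (adjusted p = 0.0558 by limma-trend). Left out one at a time, the lane 5 library of U87 LKB1 siRNA and each U87 control library brought the ALDH5A1 p below the threshold (0.0127, 0.0362 and 0.0367). ALDH6A1, of valine breakdown, did not pass under LKB1 siRNA without a lane term (log2 -0.41, adjusted p = 0.327 by limma-trend). With a lane term, which sets the lines against each other on lane 2, it did (log2 -0.74, adjusted p = 0.016 by limma-trend). The log2 difference of ALDH6A1 was -0.79 on lane 2 and -0.03 between lane 4 of T98 and lane 5 of U87. ALDH1L1 and ALDH8A1 had at most 10 reads in any library and were not tested.

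Genes around the retinal dehydrogenases differed between the lines in several directions. Among genes of retinoid supply and clearance, 11 of 17 were tested. Under LKB1 siRNA, 2 were higher and 6 lower in T98 (21.5% and 20.9% of all genes), with a median log2 difference of -0.88, where that of all genes was 0.02. STRA6, the retinol uptake receptor, was at 6419 and 7555 in T98 with LKB1 siRNA against 50.4 and 450.8 in U87 (log2 5.51, adjusted p = 0.0061 by limma-trend). RDH10, which forms retinal from retinol, was at 1481 and 2467 in T98 against 175.2 and 209.3 in U87 (log2 3.31, adjusted p = 0.00029 by limma-trend). CRABP2, which carries retinoic acid to its receptors, went the other way, at 66.3 and 102.5 in T98 against 1873 and 4883 in U87 (log2 -5.18, adjusted p = 0.00051 by limma-trend). RDH5 was lower too (log2 -2.73, adjusted p = 0.000576). T98, lower than U87 in ALDH1A3, was thus higher in STRA6 and RDH10, and U87 was higher in CRABP2.

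None of the 11 retinoid supply genes was called in either knockdown comparison by limma-trend without a lane term, 0 had an unadjusted p under 0.05, and edgeR and DESeq2 called 0. With a lane term, 3 were higher and 1 lower in T98 (8.48% and 7.33% of all genes), and 3 were higher and 0 lower in U87 (5.29% and 5.91%). CRABP2 was higher with LKB1 siRNA in both lines, by 1.21 in T98 (adjusted p = 0.0137 by limma-trend with a lane term) and 1.22 in U87 (0.0114). It had values of 1873 and 4883 in U87 LKB1 siRNA libraries, against 966.1 and 1738 in U87 control libraries. STRA6 was higher in U87, at 50.4 and 450.8 with LKB1 siRNA against 25.6 and 171.1 with control siRNA (log2 1.17, adjusted p = 0.00565 by limma-trend with a lane term). RDH10 was lower in T98, at 1481 and 2467 against 2412 and 3706 (log2 -0.65, adjusted p = 0.0238 by limma-trend with a lane term).

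Among 12 of 15 retinoic acid receptor and target genes tested, 6 were higher and 1 lower in T98 than in U87 under LKB1 siRNA. The shares of all genes were 21.5% and 20.9%. RARRES1, a retinoic acid responder, was at 552.8 and 563.2 in T98 against 37.3 and 45.0 in U87 (log2 3.74, adjusted p = 0.000209 by limma-trend). The lower gene was TGM2, at 1488 and 2902 in T98 against 13727 and 33194 in U87 (log2 -3.36, SE 0.79, adjusted p = 0.012 by limma-trend). RARB, the receptor that is itself induced by retinoic acid, was higher in T98 with control siRNA, at 2248 and 3438 against 319.9 and 323.6 in U87 (log2 3.11, adjusted p = 0.000336 by limma-trend). In the knockdown comparisons none was called by limma-trend without a lane term, 4 in T98 and 2 in U87 had an unadjusted p under 0.05, and edgeR called 0. With a lane term, 5 were higher and 1 lower in T98 (8.48% and 7.33% of all genes), and 1 was higher and 2 lower in U87 (5.29% and 5.91%). TGM2, the transglutaminase induced by retinoic acid, was the one called higher in U87, at 13727 and 33194 with LKB1 siRNA against 3194 and 13839 with control siRNA (log2 1.68, adjusted p = 0.0038 by limma-trend with a lane term). In T98 TGM2 was at 1488 and 2902 with LKB1 siRNA against 395.7 and 1042 with control siRNA (log2 1.69, adjusted p = 0.00565). RARRES3, of the same list, was lower in U87, at 42.7 and 57.7 with LKB1 siRNA against 101.3 and 94.5 with control siRNA (log2 -0.96, adjusted p = 0.0226 by limma-trend with a lane term).

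Enzymes that supply or share substrates with the other members were called in both directions between the lines and, by limma-trend without a lane term, in neither knockdown comparison. Over these 5 lists, 6 genes in T98 and 2 in U87 had an unadjusted p under 0.05, edgeR called 0, and DESeq2 called 1 in each line, SGPL1. With a lane term, 1 other aldehyde-clearing gene was higher and 3 lower in T98, and 0 and 2 in U87. For sphingolipid and fatty aldehyde genes these counts were 1 and 2 in T98, and 0 and 1 in U87. For proline and glutamate genes they were 0 and 1, and 2 and 0. The remaining lists had none. Shares of all genes were 8.48% and 7.33% in T98, and 5.29% and 5.91% in U87. Of 12 alcohol dehydrogenase and amine oxidase genes tested, 5 were higher and 2 lower in T98 under LKB1 siRNA (21.5% and 20.9% of all genes). MAOA, which forms aldehydes from monoamines, was at 3.62 and 14.1 in T98 against 745.1 and 795.5 in U87 (log2 -6.53, adjusted p = 0.000545 by limma-trend). Of 14 other aldehyde-clearing genes, 4 were higher and 6 lower (21.5% and 20.9% of all genes). AKR1B10, an aldo-keto reductase that reduces retinal and other aldehydes, was at 22805 and 36825 in T98 against 1394 and 979.2 in U87 (log2 4.63, adjusted p = 0.000102 by limma-trend). GSTA4, which conjugates 4-hydroxynonenal, was lower in T98 (log2 -5.14, adjusted p = 0.000252 by limma-trend). Of 10 sphingolipid and fatty aldehyde genes, 0 were higher and 4 lower (21.5% and 20.9% of all genes). SPHK1 was among the lower (log2 -2.81, adjusted p = 0.00159 by limma-trend).

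Of 13 proline and glutamate genes tested around ALDH18A1, 3 were higher and 4 lower in T98 under LKB1 siRNA (21.5% and 20.9% of all genes). OAT was higher (log2 0.97, adjusted p = 0.00347 by limma-trend) and P4HA2 lower (log2 -2.34, adjusted p = 0.000221). PYCR1, which completes proline synthesis, was at 1980 and 1282 in U87 LKB1 siRNA libraries against 1389 and 633.8 in U87 control libraries (log2 0.76, adjusted p = 0.0304 by limma-trend with a lane term). Of 7 lysine, carnitine and choline genes tested around ALDH7A1 and ALDH9A1, 2 were higher and 3 lower in T98 under LKB1 siRNA. The shares of all genes were again 21.5% and 20.9%. AASS, the first enzyme of lysine breakdown, was higher in T98 (log2 1.68, adjusted p = 0.00196 by limma-trend). SGPL1, whose product hexadecenal is a substrate of ALDH3A2, was lower with LKB1 siRNA in the fit with a lane term, as ALDH3A2 was in all 4 lane pairs. It was at 635.0 and 878.0 in T98 LKB1 siRNA libraries against 1876 and 1431 in T98 control libraries (log2 -1.13, adjusted p = 0.018 by limma-trend with a lane term). In U87 SGPL1 was at 650.0 and 979.6 with LKB1 siRNA against 1871 and 2020 with control siRNA (log2 -1.28, adjusted p = 0.0114).

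The genes most like the 3 members with the largest mean knockdown difference were found by Pearson correlation of log2 values, centred within each line, over the 8 libraries and 12196 genes. These correlations are descriptions, and the libraries share lanes and siRNAs. ALDH1A3 was most like MPPED2 (r = 0.981), SLC33A1 (0.974) and ARMCX5 (0.972). MPPED2 was near 0 in U87, at 3.05 and 11.2 with LKB1 siRNA and 0.02 and 2.89 with control siRNA. ALDH9A1 was most like USB1 (0.981), STX5 (0.981) and RNASET2 (0.978). ALDH3A2 was most like PAFAH2 (0.990), CHIC1 (0.987) and RNF14 (0.987), and PAFAH2 was at 450.3 and 525.1 in T98 LKB1 siRNA libraries against 1149 and 944.6 in T98 control libraries.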

How the data were processed

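RNA was sequenced in 8 libraries, 2 for each of 4 groups, and groups came from the labels. The submitters' processing notes name TopHat2 2.0.8b, edgeR and the build hg19 (GRCh37), and the step that counted reads is not given in the sources used here. For each of 18815 RefSeq transcripts, the authors deposited a normalised signal value per library. Where a symbol had several transcripts, the one with the highest mean was kept. The deposited signal values behave as edgeR pseudo-counts with a common dispersion of 0.06803. Inverting that function gave whole reads, within 0.05 read, for 100% of values of 1 or more and for 99.46% (a U87 LKB1 siRNA library) to 100% of all values, so reads from values below 1 are less sure. These reads were used for depth, for reads per gene and for 2 alternative tests.

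A gene was tested where its value reached 10 in at least 2 libraries. The test was limma-trend, from limma 3.58.1 in R 4.3.3, fitted to log2(value + 1) with all 8 libraries, 1 mean per group and 4 residual degrees of freedom, two-sided, with Benjamini-Hochberg adjustment over 14282 genes and a threshold of 0.05. The number of libraries limits the precision, and 56 of the genes tested had values identical to another gene.

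The column headers give the sequencing lane. The lane difference of each gene correlated between the siRNA groups of a line (r = 0.72 in T98, 0.81 in U87) and less between lines (0.12 to 0.18), so libraries of a line pair by lane. The fit with a lane term for each line, a replicate block by lane with 2 residual degrees of freedom, is printed for some of the calls it changes. Replicate numbers follow accession order and pair nothing. Other alternatives were the pseudocount, the filter, the 4 libraries compared, edgeR 4.0.16, DESeq2 1.42.0 and leaving out each library.

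The members and gene lists were chosen with earlier results of these data known. Genes named were all aldehyde dehydrogenases, STK11, up to 2 higher and 2 lower genes of each list with the smallest adjusted p, of which some are printed, and for 3 members the 3 most correlated genes with a mean value of at least 50. One gene that met these rules, and its DESeq2 result, are not reported here. Promoters came from RefSeq, where 8 of the 10 members matched (not ALDH2 and ALDH3A1), and overlapping genes from GENCODE v29, matched by symbol. No coordinates were converted between builds.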

Additional observations from a re-analysis of the deposited data

Results flagged for a closer look

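Of the 15 aldehyde dehydrogenase genes past the filter on low values, 4 had siRNA differences of opposite sign in the lines. Each had 1 sign in both lanes of T98 and the other sign in both lanes of U87. The share of all genes that met this rule was not computed, so the count is a description only. The difference between the lines was not tested. ALDH1A1 had a log2 difference (LKB1 over control siRNA) of -1.32 in T98 and 0.80 in U87, so the T98 value minus the U87 value was -2.12, with at most 13 reads per library in U87. ALDH18A1 had -0.29 in T98 and 0.44 in U87, a T98 minus U87 value of -0.73. ALDH2 had -0.20 in T98 and 0.32 in U87, a T98 minus U87 value of -0.52. ALDH16A1 had 0.31 in T98 and -0.33 in U87, a T98 minus U87 value of 0.64.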

How the results depend on the processing

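Of 576 recomputed log2 differences of the members, 565 kept their sign. The 11 that did not all came from leaving out a library, with which the knockdown difference was -0.57 to 0.16 (T98) and -0.17 to 0.80 (U87) for ALDH2, -0.42 to 0.28 (T98) and -0.67 to 0.32 (U87) for ALDH7A1 and -0.61 to 1.14 (U87) for ALDH3A1, and the ALDH9A1 line difference under LKB1 siRNA was -0.051 to 0.23. The ALDH1B1 line difference under LKB1 siRNA kept its sign, at 0.67 to 1.24 with a library left out. Among sizes, the control siRNA line differences of ALDH1A1 and ALDH3A1 were 6.59 and 7.05 with a pseudocount of 10. Counts of genes called moved more. In T98 knockdown 4 genes were called (1502 at an unadjusted p under 0.05), 2258 with a replicate block by lane, 13 with no filter, 0 with only the 4 libraries compared, 350 by DESeq2 and 0 to 2 with a library left out. In U87 knockdown 8 were called (1268 at an unadjusted p under 0.05), 1599 with the replicate block by lane, 30 with no filter, 14 with the filter at 50, 0 with only the 4 libraries compared, 0 by edgeR, 491 by DESeq2 and 0 whichever library was left out. Between the lines, 6049 were called with LKB1 siRNA (9326 with the block, 3847 to 5782 with a library left out) and 5386 with control siRNA (9037 with the block, 3156 to 5369 with a library left out). Small knockdown differences of other family members changed sign. In T98, ALDH3B1 was -0.35 to 0.0068 with a library left out; ALDH3B2 was 0.00024 with a pseudocount of 10, 0.011 by edgeR, 0.016 by DESeq2 and -0.25 to 0.25 with a library left out. In U87, with a library left out, ALDH3B2 was -0.49 to 0.22, ALDH5A1 -2.26 to 1.45 and ALDH16A1 -0.66 to 0.0046. The cause was not tested. Depth limits ALDH1A1 and ALDH3A1 in U87, at 13 reads or fewer, and ALDH1A2 in all libraries.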
